A study of Mus musculus with 8 samples.

Results

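Brown adipocytes are the heat-producing fat cells of brown adipose tissue, and their identity is set by a small group of transcription factors. Of the 21759 genes with a symbol on the arrays, 10 were examined here, chosen by name as factors known for the fate of this cell: Prdm16, Ebf1, Ebf2, Ebf3, Zic1, Lhx8, Tbx15, Irf4, Cebpa and Cebpb. All 10 were measured, by 13 rows of the table, and where a symbol had several rows the one of highest mean over the 8 arrays stood for the gene. The samples were RNA from the brown adipose tissue of male C57BL/6 mice hybridised to whole-transcript Affymetrix arrays (Mouse Gene ST), in 2 groups of 4 arrays. One group was labelled HFD, high-fat diet in the series title, and the other NCD, which the labels do not spell out. The mice carried no stated transgene or drug treatment, and the sources used here do not give their age, the length of feeding or whether each array held a separate animal. The p-values therefore measure the spread between arrays, which may be technical. The title asks what the high-fat diet does to expression in brown fat.

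PRDM16 is a zinc finger cofactor that steers precursors toward the brown fat and away from the skeletal muscle program, in part by binding C/EBP-beta. EBF2 marks committed brown precursors and opens brown-specific enhancers to PPAR-gamma, the master factor of fat cells, while C/EBP-alpha and C/EBP-beta act in fat cells of every kind. IRF4 is induced by fasting and cold and works with PGC-1-alpha on Ucp1, the uncoupling protein gene. Zic1, Lhx8 and Tbx15 are developmental factors, and Zic1 and Lhx8 are used as markers that tell brown fat from other depots.

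None of the 10 factors passed the test for a diet difference. The groups overlapped for all 10, where 3.83% of all genes had groups apart. Means in HFD were lower for 7 factors and higher for 3, where 52.5% of all genes had lower means, and the median log2 difference was -0.08, against -0.01 over all genes tested. That median was -0.16 over the factors whose level passed that of olfactory receptor genes, -0.13 without HFD 2 and -0.05 with the mean of all rows of a symbol. The factors with the largest differences were Cebpb, Irf4 and Cebpa, each lower in HFD. In limma with Benjamini-Hochberg adjustment over all genes, 0 of 10 had an adjusted p under 0.05, against 0.142% of all genes, and the smallest was 0.573. At an unadjusted p under 0.05 there were 2 of 10, Irf4 and Cebpb, against 7.24% of all genes in either direction and 4.52% lower in HFD. The methods' t-test, run here with equal variances, gave 0 after adjustment and 1 before it, which was Ebf2 and neither of those named. Its unadjusted p for Cebpb was 0.0603, against 0.1 deposited by the authors, so the authors' form of the test may differ. Without NCD 2, 0 of 10 factors had an unadjusted p under 0.05 in limma.

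The 95% limma intervals give the uncertainty of each difference from the spread between arrays, 1 factor at a time and without adjustment. Over the 10 factors, the lowest bound was an HFD signal of 0.623 times that of NCD (Cebpb) and the highest 1.47 times (Tbx15). For the 4 factors not above the olfactory receptor level, Tbx15 among them, these ratios of array signal do not bound ratios of RNA. The unadjusted intervals of 8 factors held 0, and those of Cebpb and Irf4 did not.

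The sequences upstream of the 3 factors with the largest differences are shown so that their promoters can be compared. Each line gives the 100 bases before the RefSeq start site in GRCm38.p6, 5′ to 3′ on the plus strand, with TGACG, the core of the cAMP response element, and TATAAA, the TATA box, in capitals. They lie at chr2:167688815-167688914 (Cebpb), chr13:30749133-30749232 (Irf4) and chr7:35119193-35119292 (Cebpa).
Cebpb: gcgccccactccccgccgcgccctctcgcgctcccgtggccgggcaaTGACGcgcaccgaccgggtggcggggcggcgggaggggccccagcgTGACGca
Irf4: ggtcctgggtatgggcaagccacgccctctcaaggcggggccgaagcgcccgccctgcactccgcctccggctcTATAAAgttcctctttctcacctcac
Cebpa: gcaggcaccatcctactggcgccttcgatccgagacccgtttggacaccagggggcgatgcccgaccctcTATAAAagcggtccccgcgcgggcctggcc
The Cebpb stretch is 82.0% G or C, that of Irf4 65.0% and that of Cebpa 68.0%. Only Cebpb of these 3 stretches holds TGACG, starting 53 and 7 bases before the start site, and only Irf4 and Cebpa hold TATAAA, starting 26 and 30 bases before it. In Cebpb TATAAA lies outside the stretch, 21 bases after the annotated start site.

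RefSeq promoter windows, from 250 bases before to 50 after the start site, were at hand for 8 of the 10 factors in 9 windows, and the same letters were searched on both strands in all 32851 windows. TGACG or its reverse CGTCA was in 3 of the 9 windows and in 20.8% of all windows. TATAAA or TTTATA was in 3 of 9 against 13.6%, CCAAT or ATTGG in 2 of 9 (Prdm16 and Zic1) against 37.4%, and the EBF core CCCNNGGG, which is its own reverse, in 2 of 9 (Cebpb and Ebf3) against 13.7%. The full cAMP element TGACGTCA, which contains TGACG, and the C/EBP core TTGCNNAA or TTNNGCAA were in 0 of 9, against 1.79% and 10.8%. A match of letters is a description of the window and not a binding site.

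Whether a factor was measured above background bears on every value that follows. Olfactory receptor genes, taken as genes that fat does not use, had a median log2 level of 4.50 over 1119 genes and a 95th percentile of 6.46, and 35.1% of all genes lay above the latter. Of the 10 factors, 6 lay above it: Ebf1 at 9.37, Cebpa at 8.79, Cebpb at 8.39, Ebf3 at 8.30, Ebf2 at 8.15 and Prdm16 at 7.08, as means over 8 arrays. The other 4 did not: Lhx8 stood at 5.85, Zic1 at 5.29, Tbx15 at 5.09 and Irf4 at 4.55. Of olfactory receptor genes, 87.3% lay below Lhx8, 73.9% below Zic1, 67.2% below Tbx15 and 50.9% below Irf4. Zic1 and Lhx8, textbook markers of the classical brown depot, thus stayed within the olfactory receptor range on these arrays, while Ucp1 stood at 12.90 ± 0.05 (SD, n = 4) in NCD. Probe sets differ in brightness at equal RNA, so these levels place each factor against background and give no order of abundance between factors.

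**Figure D1:**
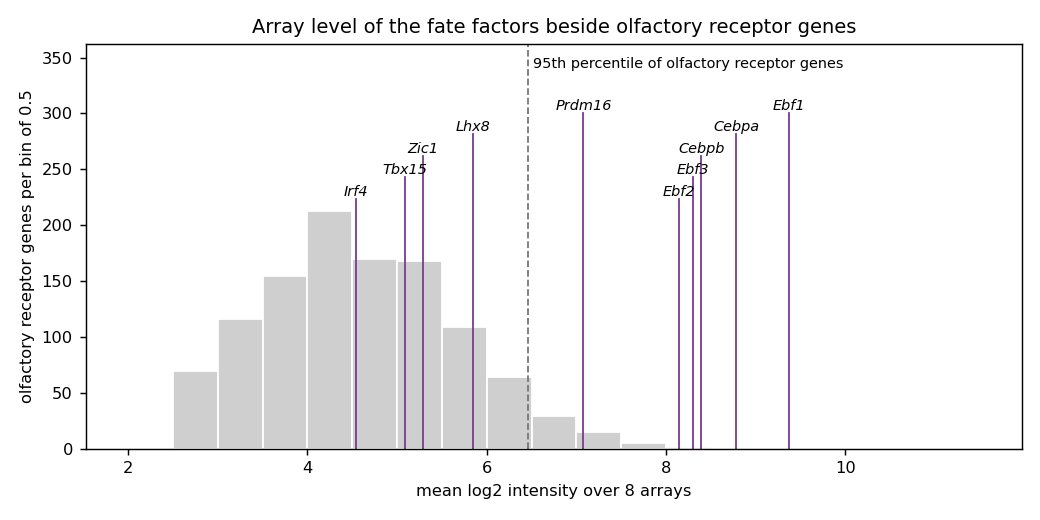
Mean log2 intensity over 8 arrays of each fate factor (purple lines, whose heights only spread the names) over a histogram of the means of 1119 olfactory receptor genes (grey bars, genes per bin of 0.5). Irf4, Tbx15, Zic1 and Lhx8 fall left of the dashed 95th percentile at 6.46, and the other 6 factors fall right of it.

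Prdm16, the cofactor at the head of the brown program, read 7.13, 6.98, 7.30 and 7.16 on NCD arrays 1 to 4 and 7.13, 7.20, 6.79 and 6.94 on HFD arrays 1 to 4. The groups overlapped, with HFD 3 and HFD 4 lowest of all 8. The difference, HFD minus NCD, was -0.13 ± 0.12 (SE, limma adjusted p = 0.872), with an interval from -0.389 to 0.134. It shrank to -0.075 without NCD 3 and to -0.0525 without HFD 3, and it grew to -0.19 without HFD 2. Its chosen row spans chromosome 4 from 153694383 to 154010960 on the minus strand in the file, whose build is not named. A second row with the symbol spans 153715337 to 153723895 on the plus strand, inside that span, and differed by 0.0025 (interval -0.288 to 0.293). The 2 rows are on opposite strands, so the second may not measure the Prdm16 messenger RNA.

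Partners of PRDM16 and other factors of its circuit were read from a list. Of 15 partner factors and cofactors, 0 passed in either direction, against 0.142% of all genes. An unadjusted limma p under 0.05 was found for 0 of the 15, against 7.24% of all genes. All 15 lay above the olfactory receptor level, and the median difference was -0.05. Ppargc1a, which encodes PGC-1-alpha, had the smallest p and differed by -0.19 (adjusted p = 0.767). The corepressor genes Ctbp1 and Ctbp2, whose proteins bind PRDM16, differed by -0.17 and 0.17 (adjusted p = 0.806 and 0.835). Pparg itself differed by -0.08, with an interval from -0.303 to 0.153, and the genes of the histone methyltransferase Ehmt1 and the opposing factors Zfp423 and Tle3 by -0.04, 0.07 and -0.15; these 4 were chosen after their values were seen.

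**Figure D2:**
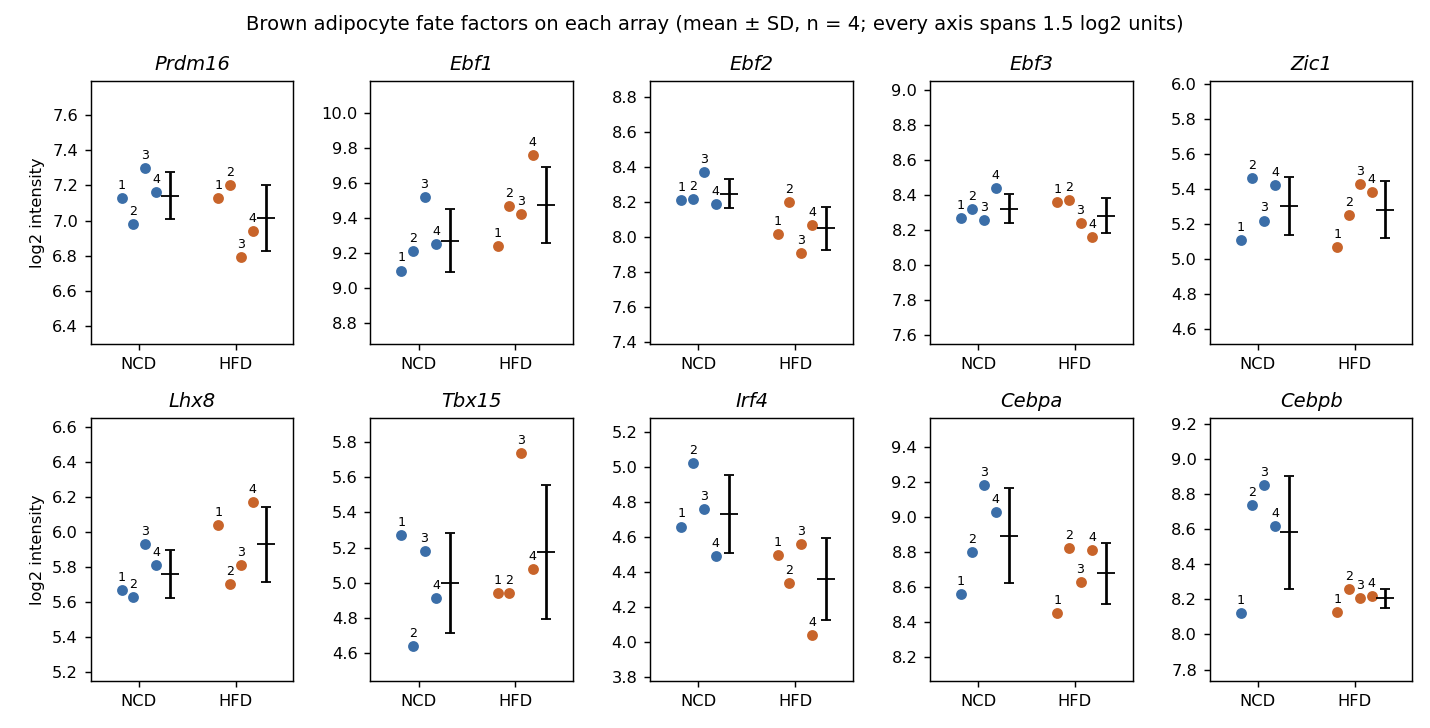
Log2 intensity of each fate factor on every array (points numbered by array, NCD in blue and HFD in orange) with the group mean ± SD (black, n = 4). The groups overlap in every panel, Cebpb has NCD 1 just below its HFD values and the other NCD arrays above them, and Tbx15 is highest on HFD 3.

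Among the early B-cell factors, Ebf2 and Ebf1 had means on opposite sides. Ebf2 read 8.21, 8.22, 8.37 and 8.19 on NCD arrays and 8.02, 8.20, 7.91 and 8.07 on HFD arrays. HFD 1, HFD 3 and HFD 4 lay below every NCD array and HFD 2 lay among them. Its difference was -0.20 ± 0.11 (SE, limma adjusted p = 0.757), or 1.15-fold, with an interval from -0.43 to 0.04. In the authors' deposited table the fold for this row is -1.15 and the p is 0.04. After cyclic loess the difference was -0.12, and without HFD 2 it was -0.25. Ebf2 varied little: its residual SD of 0.103 was larger than that of 8.71% of genes. The row spans chromosome 14 from 67852129 to 68048630 on the plus strand. A second row with the same accession, from 68048480 to 68050065 on the minus strand, differed by -0.01 (interval -0.242 to 0.227). As for Prdm16, the rows are on opposite strands, so the second may not measure the Ebf2 messenger RNA.

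Ebf1, a factor of B cells and of early fat cell differentiation, read 9.10, 9.21, 9.52 and 9.25 on NCD arrays and 9.24, 9.47, 9.42 and 9.76 on HFD arrays. NCD 3 lay above 3 of the HFD arrays. The difference was 0.20 ± 0.13 (SE, limma adjusted p = 0.813), with an interval from -0.08 to 0.486. It was 0.11 without HFD 4, 0.27 with cyclic loess (limma adjusted p = 0.486) and 0.30 without NCD 2 and NCD 3. The chosen row spans chromosome 11 from 44431636 to 44819912. A short second Ebf1 row before it on the same strand, from 44430823 to 44431216, read 6.97 to 7.26 in NCD and 7.14 to 7.55 in HFD and had a difference of like sign, 0.275 ± 0.117 (SE). Its unadjusted p was 0.0358, where 7.25% of all rows had one under 0.05, and its limma adjusted p over all rows was 0.656. In the authors' deposited table that row has a fold of 1.21 and a p of 0.05.

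Ebf3, a relative that is enriched in brown over white fat, was the least variable of the 10. It read 8.27, 8.32, 8.26 and 8.44 on NCD arrays and 8.36, 8.37, 8.24 and 8.16 on HFD arrays, so the groups lay over one another. Its difference was -0.04 ± 0.11 (SE, limma adjusted p = 0.964), with an interval from -0.268 to 0.188. Its residual SD, 0.0922, was larger than that of only 5.37% of genes. The row spans chromosome 7 from 144385404 to 144506128 on the minus strand.

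Both CCAAT/enhancer binding proteins had lower means in HFD. Cebpb, an early and cAMP-inducible factor of fat cell differentiation, read 8.12, 8.74, 8.85 and 8.62 on NCD arrays and 8.13, 8.26, 8.21 and 8.22 on HFD arrays. NCD 2, NCD 3 and NCD 4 lay above every HFD array and NCD 1 lay below them all, while the HFD arrays spanned only 8.13 to 8.26. The means were 8.58 ± 0.32 (SD, n = 4) and 8.21 ± 0.05 (SD, n = 4), a 1.3-fold difference of -0.38 ± 0.14 (SE) with an interval from -0.683 to -0.0718. The unadjusted p was 0.0189 and the limma adjusted p 0.573, and 715 genes had a smaller p. In the authors' deposited table the p is 0.1 and the fold -1.3. Single arrays set the size: without NCD 1 the difference was -0.53 (adjusted p = 0.125), and leaving out NCD 2 and NCD 3, whose values over all rows had the widest spread in their group (SD 1.79 and 1.82), made it -0.165 (adjusted p = 0.897). The row spans chromosome 2 from 167514415 to 167515918.

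Cebpa, the factor of the mature fat cell, read 8.56, 8.80, 9.18 and 9.03 on NCD arrays and 8.45, 8.82, 8.63 and 8.81 on HFD arrays. As for Cebpb, NCD 3 was highest and NCD 1 lowest of the NCD arrays, and HFD 1 was lowest of all. The difference was -0.215 ± 0.142 (SE, limma adjusted p = 0.814), with an interval from -0.519 to 0.0887. It was -0.33 without NCD 1, -0.12 without NCD 3 and -0.14 without HFD 1. The row spans chromosome 7 from 35904322 to 35906947. Of 15 general adipocyte genes, many of them direct C/EBP or PPAR-gamma targets, 0 passed, against 0.142% of all genes. Their median difference was -0.08. The groups were apart for 4 of the 15, against 3.83% of all genes. At an unadjusted limma p under 0.05, 1 was lower and 1 higher in HFD, against 7.24% of all genes. In this list 1 gene passed with an intensity trend and robust prior, and 1 without NCD 2 and NCD 3. Agpat2, an acyltransferase of fat storage, differed by -0.555 (adjusted p = 0.134), Lep, the leptin gene, by 0.90 (adjusted p = 0.308) and Slc2a4, the insulin-responsive glucose transporter gene, by -0.355 (adjusted p = 0.699).

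Irf4, the fasting-induced partner of PGC-1-alpha, read 4.66, 5.02, 4.76 and 4.49 on NCD arrays and 4.50, 4.34, 4.56 and 4.04 on HFD arrays. NCD 4 lay below HFD 1 and HFD 3, and HFD 4 was lowest of all. The difference was -0.37 ± 0.14 (SE), with an interval from -0.675 to -0.0695, an unadjusted p of 0.0193 and a limma adjusted p of 0.574. Leaving out NCD 2 and NCD 3 made it -0.215 (adjusted p = 0.861). In the authors' deposited table the p is 0.06 and the fold -1.29. Every value lay near the median of olfactory receptor genes, so the fold has no firm meaning in RNA amount. IRF4 is best known from lymphocytes, plasma cells and dendritic cells: 0 of 6 B cell markers and 0 of 6 T cell markers lay above the olfactory receptor level, with list means of 5.17 to 5.43 and 5.41 to 5.58 in NCD and 5.33 to 5.43 and 5.42 to 5.63 in HFD. The macrophage and dendritic cell list, with 5 of 9 members above that level, had means of 6.50 to 7.05 in NCD and 6.54 to 7.06 in HFD. Means were higher in HFD for 7 of its 9 members (median difference 0.17), where 52.5% of all genes had lower means. Of the 9, 0 passed the threshold and 1 had an unadjusted limma p under 0.05, against 0.142% and 7.24% of all genes. The part of these cells in the Irf4 values was not tested. The row spans chromosome 13 from 30841127 to 30858796.

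Signals known to act on these factors had 0 of 15 members past the threshold, where 0.142% of all genes passed, and a median difference of 0.01. Of the 15, 8 lay above the olfactory receptor level. At an unadjusted limma p under 0.05, 1 was lower and 1 higher in HFD, against 7.24% of all genes in either direction. Adrb3, the beta-3 adrenergic receptor gene through which cold and noradrenaline raise cAMP in brown fat, differed by -0.40 ± 0.15 (SE, unadjusted p = 0.0178, limma adjusted p = 0.566). Bmp4, a ligand that favours fat commitment, differed by 0.25 (adjusted p = 0.681) and Irs1, an insulin receptor substrate gene, by 0.195 (adjusted p = 0.771).

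**Figure D3:**
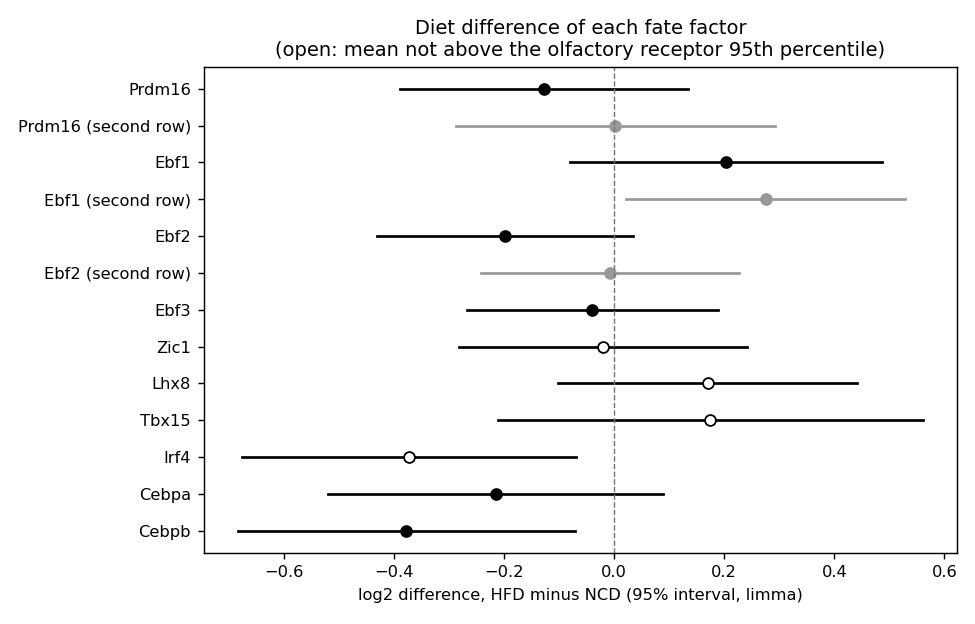
Log2 difference, HFD minus NCD, with the 95% limma interval for the row chosen for each fate factor (black) and for the 3 second rows (grey). Open circles are factors not above the olfactory receptor 95th percentile, and among black points only the intervals of Irf4 and Cebpb leave out 0.

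The depot markers lay near background and did not pass. Zic1 read 5.11, 5.46, 5.22 and 5.42 on NCD arrays and 5.07, 5.25, 5.43 and 5.38 on HFD arrays, with a difference of -0.02 ± 0.12 (SE, limma adjusted p = 0.988) and an interval from -0.282 to 0.242. Lhx8 read 5.67, 5.63, 5.93 and 5.81 on NCD arrays and 6.04, 5.70, 5.81 and 6.17 on HFD arrays. HFD 1 and HFD 4 lay above every NCD array. The Lhx8 difference was 0.17 ± 0.13 (SE, limma adjusted p = 0.839), with an interval from -0.102 to 0.442. It was 0.09 without HFD 4 and 0.25 without HFD 2. Zic1 spans chromosome 9 from 91255183 to 91260637 and Lhx8 chromosome 3 from 153969257 to 153997045, both on the minus strand.

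Tbx15, which acts in brown fat and also in fast muscle fibres, had its highest value in each group on the array with the highest muscle markers. It read 5.27, 4.64, 5.18 and 4.91 on NCD arrays and 4.94, 4.94, 5.74 and 5.08 on HFD arrays, and its residual SD of 0.337 was larger than that of 96.3% of genes. The mean of 12 skeletal muscle markers was 7.82 on NCD 1 and 8.11 on HFD 3, against 5.21 to 5.62 on the other 6 arrays, and Myh4, a fast myosin gene, read 10.52 and 11.11 there and at most 5.73 elsewhere (chosen after its values were seen). The muscle markers ran over 5.21 to 7.82 in NCD and 5.24 to 8.11 in HFD, with 4 of 12 above the olfactory receptor level by their mean. The other 8, Myh1, Myh4, Mylpf, Myf5, Myf6, Myod1, Myog and Pax7, lay below it by their mean. The Tbx15 difference was 0.175 ± 0.181 (SE, limma adjusted p = 0.886, interval -0.211 to 0.561). It was 0.08 without NCD 1 and HFD 3 and fell to -0.01 without HFD 3 alone. NCD 3, the array with the lowest muscle mean, read 5.18 for Tbx15, near the 5.27 of NCD 1. The part of muscle in the Tbx15 values was not tested. The row spans chromosome 3 from 99057750 to 99158182.

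**Figure D4:**
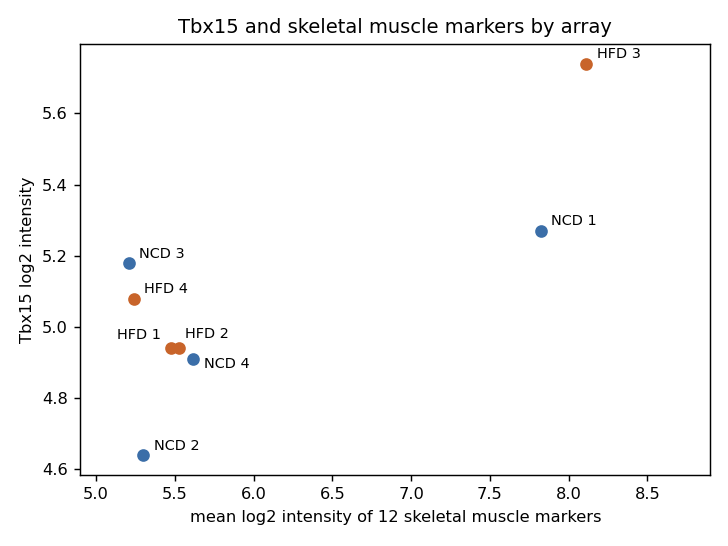
Log2 intensity of Tbx15 (vertical) against the mean log2 intensity of 12 skeletal muscle markers (horizontal) on each array, NCD in blue and HFD in orange. NCD 1 and HFD 3 stand apart at 7.82 and 8.11 on the muscle axis and hold the highest Tbx15 value of their groups, 5.27 and 5.74.

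Of the 10 factors, Tbx15 alone was highest of its group on both of those arrays. How many of all genes were placed so was not counted. Prdm16 and Ebf2 had their lowest value of all 8 arrays on HFD 3, at 6.79 and 7.91, and Ebf1 and Cebpb had their lowest on NCD 1, at 9.10 and 8.12. Without NCD 1 and HFD 3, 0 of 10 factors passed, Cebpb differed by -0.53 (adjusted p = 0.227), Irf4 by -0.46 (adjusted p = 0.450) and Prdm16 by -0.06 (adjusted p = 0.938).

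Deviations from the group means showed which factors varied together from array to array. Over 45 pairs of factors and 8 arrays, Pearson's r had a median of 0.0519, and 25 pairs were above 0. The pairs of highest r were Ebf1 with Cebpa (r = 0.828, Spearman's rho = 0.833), Cebpa with Cebpb (r = 0.783, rho = 0.762) and Prdm16 with Ebf2 (r = 0.778, rho = 0.619). The lowest was Prdm16 with Zic1 (r = -0.667, rho = -0.643). These are descriptions over 8 values that share the arrays and their unequal spread. The 7629 genes above the olfactory receptor level were then ranked by their likeness to each factor in the same measure. Srebf1, a lipogenic transcription factor gene, was most like Prdm16 (r = 0.977, rho = 0.976), followed by Lingo4 (r = 0.899). Dlg1 (r = 0.998) and Pfkl (r = 0.982) were most like Ebf1, Sdhaf1 (r = 0.979) and Nol6 (r = 0.958) most like Ebf2, and Igf2as (r = 0.973) and Fam117a (r = 0.952) most like Ebf3. Pfkfb3 (r = 0.967) and Ranbp2 (r = 0.959) were most like Cebpa, and Rexo4 (r = 0.985) and Tatdn2 (r = 0.973) most like Cebpb. Tbx15 was most like Ankrd23 (r = 0.978), a striated muscle gene, and Dcn (r = 0.969), a matrix gene. For the remaining factors within the background range the leading genes were Trps1 (r = 0.977) and Vapa (r = 0.973) for Irf4, Dclre1b (r = 0.984) and Lsp1 (r = 0.968) for Lhx8, and Tmem45b (r = 0.949) and Gngt2 (r = 0.943) for Zic1. Factors near background thus reached correlations as high as those well above it, as a search of this many genes over 8 arrays allows.

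Listed relatives of the fate factors, which are not the whole of each family, showed no member past the threshold. Of 37 paralogues, 0 passed in either direction, against 0.142% of all genes. An unadjusted limma p under 0.05 was found for 0 of the 37, against 7.24% of all genes. Means were lower for 16 and higher for 20, and the median difference was 0.01. Only 8 lay above the olfactory receptor level, among them Cebpg, Ddit3, Irf2, Tbx18 and Mecom, the nearest relative of Prdm16, which differed by -0.10 (interval -0.349 to 0.144). The smallest p in the list belonged to Zic5 (difference 0.23, adjusted p = 0.749), Tbx5 (0.205, adjusted p = 0.757) and Lhx9 (0.205, adjusted p = 0.773), none of them above that level. Cebpd, a partner of Cebpb early in fat cell differentiation, differed by 0.07, at a mean of 5.11. Names outside the 3 of smallest p were chosen after their values were seen.

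Genes used as read-outs of the brown program split. Of 20 brown-selective genes, 2 fell, 0 rose and 18 did not pass, where 0.142% of all genes passed. At an unadjusted limma p under 0.05, 5 were lower and 3 higher in HFD, against 7.24% of all genes in either direction. The groups were apart for 4 of the 20, against 3.83% of all genes. Means were lower for 11 of the 20, against 52.5% of all genes, and the median difference was -0.05. Ucp1 differed by -0.05, with an interval from -0.266 to 0.166. Elovl3, whose cold-induced product lengthens fatty acids, fell by 1.385 (limma adjusted p = 0.00673) to an HFD mean of 5.82, within the olfactory receptor range. Mpzl2, an adhesion protein gene used as a brown fat marker, fell by 0.785 (limma adjusted p = 0.0148). Acot11, a cold-induced thioesterase gene, differed by -0.605 (adjusted p = 0.0698). This list had 3 called genes with an intensity trend and robust prior, with only genes above the olfactory receptor level, and without NCD 4. The Elovl3 call was lost without NCD 2 and NCD 3 (-1.05, adjusted p = 0.149), and the Mpzl2 call was lost there (-0.64, adjusted p = 0.195) and without NCD 2, HFD 1 or HFD 4 singly (adjusted p = 0.0779, 0.0788 and 0.0535). Both were lost in the methods' t-test after adjustment.

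**Figure D5:**
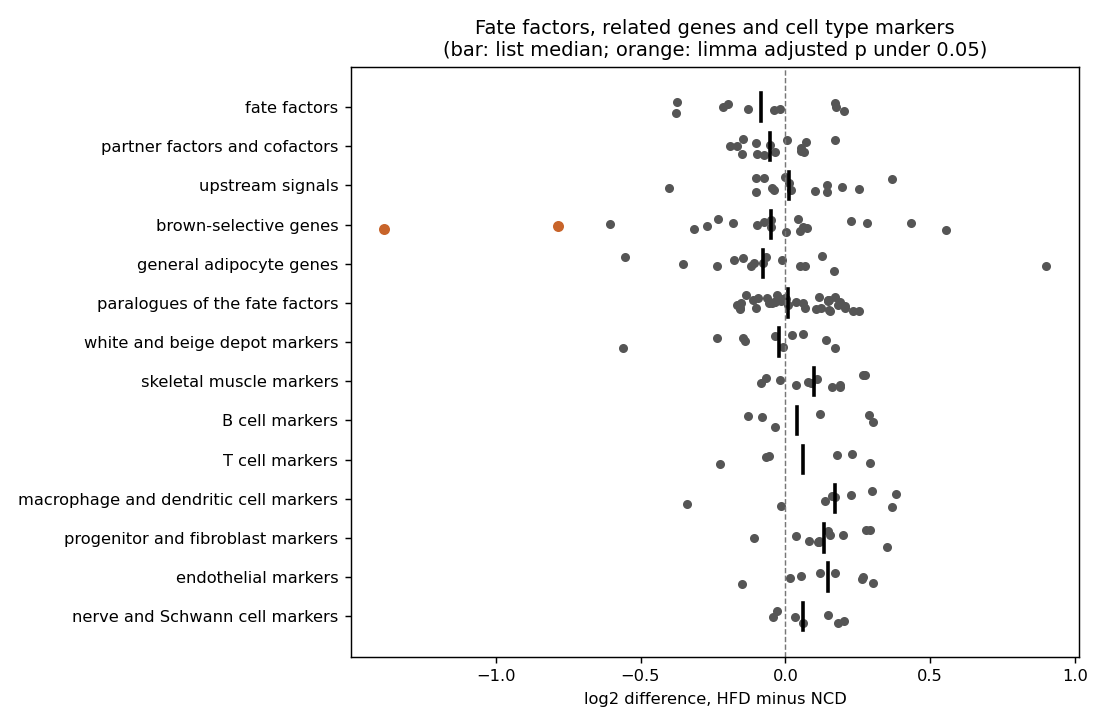
Log2 difference, HFD minus NCD, of every measured member of each list (points) with the list median (bar); orange marks a limma adjusted p under 0.05. Elovl3 and Mpzl2 among the brown-selective genes are the only orange points, and the 10 fate factors lie between -0.38 and 0.20.

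Markers of other depots and cells were read beside the fate factors. Of 10 white and beige depot markers, 1 lay above the olfactory receptor level, 0 passed, and the median difference was -0.02. Progenitor and fibroblast markers had higher means in HFD for 11 of 12 members (median 0.13) and endothelial markers for 7 of 8 (median 0.15). Of all genes, 52.5% had lower means. In either list 0 members passed the threshold, where 0.142% of all genes did. At an unadjusted limma p under 0.05, 2 progenitor markers and 1 endothelial marker were higher in HFD and 0 were lower. The share of all genes was 7.24% in either direction. The progenitor list mean was 7.21 to 7.55 in NCD and 7.38 to 7.69 in HFD. Of nerve and Schwann cell markers 0 of 7 lay above the olfactory receptor level. In whole tissue, fewer cells of a type and less RNA per cell cannot be told apart, and the part of stromal cells in the Ebf1 and Ebf2 values was not tested.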

How the data were processed

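Array intensities were log transformed and then quantile normalized by the authors with Affymetrix Power Tools, per the design text. The deposited values are normalized log2 intensities of 25254 rows (transcript clusters), and the second deposited table is identical in all 25254. The sources used here do not name the summarization, the background correction or the annotation and its build. The authors also deposited a p-value and a signed fold for diet (a score below 0 where HFD is lower), which equalled the fold between group means within 0.02 for 100% of rows that differed by over 0.05 log2. Array medians ran from 5.91 to 5.99, standard deviations over rows from 1.69 to 1.82, and array correlations from 0.976 to 0.991. The number of arrays limits the precision: differences had a median standard error of 0.127.

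The row of highest mean stood for each of 21759 genes. The accession of each of the 10 factors matched RefSeq (GRCm38.p6), on the same chromosome. Coordinates of rows are those of the file and promoter coordinates those of GRCm38.p6. Differences are HFD minus NCD from limma 3.58.1 in R 4.3.3 (lmFit, eBayes, two-sided, Benjamini-Hochberg over all genes, threshold 0.05). The fit was tested on simulated data. The factors and lists were chosen with earlier results of these data known, so counts over them are descriptions. Genes were named by rule: all 10 factors, the 3 smallest p of each of 5 lists (partners, upstream signals, brown-selective, general adipocyte, paralogues) with any member past the threshold, Ucp1, and the 2 genes most like each factor. Other variance models, weights, filters, normalizations, rows and array subsets were tried. Figures were drawn with matplotlib 3.10.9.

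Same-numbered NCD and HFD arrays did not deviate together (correlations of deviations over genes -0.165 to 0.00249), so the numbers were not taken to pair samples.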

Additional observations from a re-analysis of the deposited data

Results flagged for a closer look

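Within a group of 4 arrays, a single array was marked where its gap to the nearest other passed Dixon's critical share of the group's range; chance marks about 1 in 20 groups, and 4 of 58 groups examined were marked. Among the fate factors, Ebf2 on NCD 3 read 8.37, above the other NCD arrays at 8.19 to 8.22. Among related genes, Acot11 read 6.85 on NCD 4, below its group, and 6.64 on HFD 4, above its group, and Lep read 9.52 on HFD 1, below its group. Tbx15 on HFD 3 (5.74) had a gap of 0.825 of its range and was not marked.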

How the results depend on the processing

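Under 20 alternatives 0 of 10 fate factors passed, and under the one that kept only genes above the olfactory receptor level 0 of the 6 tested there did. Prdm16, Ebf1, Ebf2, Lhx8, Irf4, Cebpa and Cebpb kept their sign in every one that measured them. The smallest adjusted p in any was 0.125, for Cebpb without NCD 1. The number of all genes called was 70 with an intensity trend and robust prior and 55 with only genes above the olfactory receptor level. It was 0 in the equal-variance t-test, 3 without NCD 2 and NCD 3, and 21 to 38 when 1 array was left out. With the replicate number as a block 36 genes and 0 fate factors were called; NCD and HFD arrays shared numbers and not their deviations, and 0 of 4 NCD arrays correlated best with its own number. Factors with an unadjusted p under 0.05 numbered 0 to 3 when 1 array was left out, 0 without NCD 2, and 1 without HFD 4. They numbered 3 with cyclic loess, with equal quantiles and with the mean of all rows of a symbol. Signs turned for near-zero differences: Ebf3 to 0.032 with cyclic loess, 0.034 with equal quantiles and 0.00083 without HFD 4; Zic1 to 0.033 without NCD 2, 0.019 without NCD 4, 0.051 without HFD 1 and 0.018 without NCD 2 and NCD 3; Tbx15 to -0.013 without HFD 3; and Ucp1 to 0.022 with equal median and spread. The cause was not tested. When 1 array was left out, Ebf3 ran from -0.069 to 0.00083, Zic1 from -0.084 to 0.051 and Tbx15 from -0.013 to 0.265.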
